A study of Mus musculus with 31 samples.

Results

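Brain RNA was compared between 3 mice given oleic acid and 2 mice given physiological serum, all killed 24 h after a single tail-vein injection. The arrays were chosen by their titles, which name the treatment and the time, and make up 5 of the 31 arrays in the series. The other 26 cover the same treatments at 1, 1.5, 3, 4 and 18 h. All mice were female C57BL/6, 6 weeks old, with no allele or transgene named, and all were injected under ketamine and xylazine. The serum mice received 200 µl, and the oleic acid dose was 1.2 µl per g of body weight. Each array holds the whole-brain RNA of 1 mouse, labelled with Cy3 on a single-colour Agilent array. Levels are log2 processed intensities minus the 75th percentile of the same array, so that levels of different probes are not comparable with each other. Each difference subtracts the serum mean from the oleic acid mean, and limma's moderated standard error (SE) follows the ± sign.

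Intravenous oleic acid lodges in the lung capillaries and damages their walls, and is used in animals as a model of acute lung injury. The brain is reached by circulating cytokines, fatty acids and changes in blood gases. Its barriers to the blood are the vascular endothelium and the choroid plexus, the secretory epithelium that makes cerebrospinal fluid. A dissected whole brain can also hold more or less of the structures at its base. The anterior pituitary makes prolactin (Prl), growth hormone (Gh), the corticotropin precursor (Pomc), and thyrotropin, luteinising and follicle-stimulating hormone (Tshb, Lhb and Fshb, which share the Cga subunit). The lateral hypothalamus makes orexin (Hcrt) and melanin-concentrating hormone (Pmch), and magnocellular hypothalamic neurons make oxytocin (Oxt) and vasopressin (Avp).

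The promoters of Prl and Hcrt, the defining genes of these 2 tissues, are shown because their signals separated individual mice rather than the treatments. The 250 bases before each start site are given 5′ to 3′ on the gene's strand, from RefSeq on GRCm38.p6. Prl lies at chr13:27057320-27057569 on the plus strand and Hcrt at chr11:100762932-100763181 on the minus strand. Capitals mark matches to ATGNATA, or TATNCAT on the opposite strand, the core of the site described for the pituitary factor POU1F1.
Prl: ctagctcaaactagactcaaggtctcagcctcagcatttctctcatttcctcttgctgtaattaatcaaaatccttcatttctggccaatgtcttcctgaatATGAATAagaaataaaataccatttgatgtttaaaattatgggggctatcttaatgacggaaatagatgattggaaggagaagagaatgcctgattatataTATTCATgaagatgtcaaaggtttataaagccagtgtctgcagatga
Hcrt: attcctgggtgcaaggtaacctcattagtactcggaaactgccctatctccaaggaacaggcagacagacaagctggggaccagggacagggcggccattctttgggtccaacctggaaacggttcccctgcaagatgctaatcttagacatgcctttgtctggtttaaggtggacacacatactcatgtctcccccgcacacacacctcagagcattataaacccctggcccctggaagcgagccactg
The Prl window held 2 matches, 1 on each strand, at 47 and 148 bases before the start. The windows of Hcrt, Tshb, Cga, Pomc, Lhb and Fshb held 0. Of 32851 promoter windows of this length, 2603 (7.92%) held a match. A match describes letters only.

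Pituitary hormone signal was high in 3 of the 5 mice at 24 h, 1 given serum and 2 given oleic acid. The Prl level was -6.48 in serum mouse 1 and 7.69 in serum mouse 2. It was 7.66, -7.16 and 7.91 in oleic acid mice 1, 2 and 3. The Prl probe (mm9 chr13:27156972-27157031, plus strand) was well above background on those 3 arrays alone at 24 h, and its highest level on the other 26 arrays was -1.62. Gh levels were -6.08 and 6.43 in the serum mice and 5.89, -7.48 and 6.21 in the oleic acid mice, so the same 3 brains were high. Their Pomc levels were 6.76, 6.06 and 6.23, against 0.95 in serum mouse 1, 0.19 in oleic acid mouse 2 and at most 0.96 elsewhere in the series. Cga, Tshb, Lhb, Fshb and the growth hormone releasing hormone receptor Ghrhr separated the mice in the same way. Cga levels, for example, were 3.39, 3.36 and 3.09 in the 3 high brains and -5.80 and -7.24 in the others. Signal of this kind cannot tell fewer cells of a type from less RNA per cell.

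The mean of 7 pituitary genes was -4.49 and 2.09 in the serum mice, and 2.05, -4.89 and 1.99 in the oleic acid mice. On the other 26 arrays it ran from -5.53 to -3.16. Since each treatment held both kinds of brain, the treatment difference of Gh was 1.37 ± 2.89, with a limma adjusted p of 0.921. That difference became -4.89 without serum mouse 1 and 7.62 without serum mouse 2. The brightest probe of Pou1f1, the pituitary transcription factor gene, did not follow the hormones and lay between 3.44 and 3.95 on all 5 arrays. Its dimmer probe gave -6.70 and -5.00 in the serum mice and -5.78, -6.85 and -4.62 in the oleic acid mice, and was highest in the same 3 brains.

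Hypothalamic signal was low in a single brain of the 5 at 24 h, that of oleic acid mouse 2. Its Hcrt level was -3.01, against 3.02 and 2.68 in the serum mice and 2.83 and 2.58 in oleic acid mice 1 and 3. This was below the lowest of the other 26 arrays (-0.70). Pmch was -5.20 in oleic acid mouse 2 and between 1.14 and 1.30 in the other 4. Oxt was -0.79 there and between 3.56 and 4.02 in the others. Avp was -0.06 there, and 2.81, 2.65, 2.41 and 1.90 in the other 4. The neuropeptides Npy and Sst, which are also made in cortex, did not stand apart in that brain. Npy was 3.73 there and 3.33 to 3.62 in the others. The mean of 6 hypothalamic genes was -2.27 in oleic acid mouse 2. It was also low at other times, at -1.36 in oleic acid mouse 3 at 4 h and -0.59 in serum mouse 3 at 1 h. The mean of Oxt and Avp was -0.43 in oleic acid mouse 2 and as low as -1.05 on the other 26 arrays.

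The same mouse was low in the markers of midbrain and brainstem monoamine neurons. Slc6a3, the dopamine transporter, was -2.43 in oleic acid mouse 2 and 1.17 to 1.57 in the other 4. Slc6a4, the serotonin transporter, was -7.21 there and -3.12 to -2.90 in the others. Tph2, the serotonin-synthesising enzyme of the brain, was -4.48 there and -2.42 to -1.90 in the others. Of the 14 hypothalamic neuropeptide genes tested, 12 had a negative treatment difference, with a median of -0.54, and of the 9 monoamine genes 8 did, with a median of -0.62. Over all genes tested the share with a negative difference was 57.2% and the median was -0.04. Without oleic acid mouse 2, the medians became -0.17 for the neuropeptides and -0.12 for the monoamine genes, and the difference of Hcrt went from -2.05 ± 1.1 to -0.14.

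**Figure D1:**
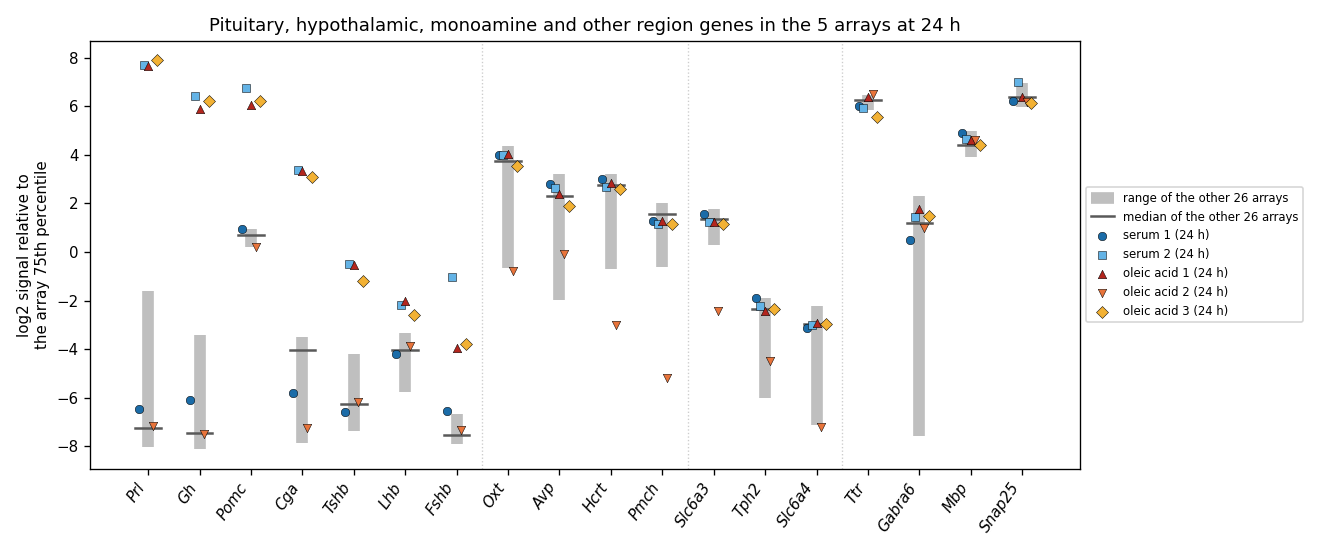
Levels of pituitary, hypothalamic, monoamine and other region genes (log2 signal relative to the array's 75th percentile) in each mouse at 24 h, with the range and median of the other 26 arrays as bar and line. Prl and Gh are near 8 and 6 in serum mouse 2 and oleic acid mice 1 and 3, and Hcrt and Pmch are lowest in oleic acid mouse 2.

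Markers of brain cell types were well above background on all 5 arrays. Levels of the neuronal gene Snap25 ran from 6.15 to 6.99, of the astrocyte gene Gfap from 2.28 to 2.53, of the myelin gene Mbp from 4.41 to 4.88, of the microglial gene Cx3cr1 from 2.54 to 2.83 and of the endothelial gene Cldn5 from 3.22 to 3.96. The share of spots well above background was 56.3% to 67.0%, which limits what dim probes can show. Serum mouse 1 and the 3 oleic acid mice lay on 1 slide. Serum mouse 2 lay on a slide scanned on another day, which held no other 24 h array. The 2 serum arrays stood farther from the series than the oleic acid arrays. The share of genes over 1 log2 unit from their series median was 3.60% and 6.30%, against 1.65%, 1.95% and 1.70%. The other arrays on the slide of serum mouse 2, from 1.5 h, gave 7.068% after serum and 9.003% after oleic acid. The part of the slide in these distances was not tested.

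No gene passed the test of oleic acid against serum at 24 h. Of 25170 genes, 0 (0%) had a limma adjusted p under 0.05. The unadjusted p was under 0.05 for 1656 (6.58%). Of the latter, 830 (3.3%) were higher and 826 (3.28%) lower after oleic acid. The smallest adjusted p was 0.0820, held by a probe and a transcript that have no gene symbol. All 3 oleic acid values lay on one side of both serum values for 7259 genes (28.8%), of which 3080 (12.2%) were higher and 4179 (16.6%) lower. The genes that passed depended on which serum mouse was kept. The sole gene to pass without either serum mouse was Fanci, and its sign changed. Its difference was -3.26 without serum mouse 2 and 2.46 without serum mouse 1. Fanci levels were -1.69 and -7.41 in the serum mice and -4.86, -4.64 and -5.36 in the oleic acid mice. Of those 58 genes, serum mouse 1 was the highest of all 31 arrays in 43 and the lowest in 14. Comparing within the slide that held both treatments, which leaves serum mouse 1 as the sole control, 80 genes passed.

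The genes ranked highest among those above background on every 24 h array, none of which passed, were led on the higher side by Zfp319, a zinc finger gene. Its levels were -2.41 and -1.97 in the serum mice and -1.50, -1.40 and -1.24 in the oleic acid mice. The difference was 0.81 ± 0.20 (1.75-fold, limma adjusted p = 0.598, n = 2 and 3). The median of the other 26 arrays was -1.40, so the oleic acid mice lay near it and the serum mice below. Tnfrsf9, a costimulatory receptor of activated T cells, had levels of 0.06 and -0.63 in the serum mice and 0.19, 0.63 and 0.51 in the oleic acid mice. Its difference of 0.73 was 0.38 without serum mouse 2. A second, dimmer Tnfrsf9 probe, above background on 1 of the 5 arrays, did not show this order, with -6.06 and -5.01 against -5.73, -5.46 and -5.42.

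Of the other ranked genes on the higher side, Cyfip1, a subunit of the actin-regulating WAVE complex, gave 1.04 and 0.91 in the serum mice and 1.45, 1.55 and 1.40 in the oleic acid mice. That is a difference of 0.49 ± 0.13. Iqsec2, a synaptic exchange factor for Arf GTPases, gave 2.31 and 2.38 against 2.80, 3.06 and 2.87. Adam22, the neuronal receptor of LGI proteins, differed by 0.62, with 1.90 and 2.19 against 2.53, 2.51 and 2.97, while its other probes differed by 0.29 and -0.15. Bcl7a, a subunit of the SWI/SNF remodeller, differed by 0.63. Ino80, the ATPase of a nucleosome remodeller, differed by 0.71 at its brightest probe and by -0.06 at another. Inpp5d, the SHIP inositol phosphatase of microglia and blood cells, differed by 0.59, with -1.20 and -1.02 against -0.71, -0.34 and -0.52. The RNA-binding genes Rbm45 and Mex3d differed by 0.72 and 0.73, and a second Rbm45 probe by 0.71. Armcx1, which acts in mitochondrial transport, gave 0.53 and 1.51 against 1.61, 1.66 and 1.92, and its difference of 0.71 was 0.22 without serum mouse 1. Mtmr3, a phosphoinositide phosphatase, differed by 0.46 at its brightest probe and by -0.57 at another.

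On the lower side Gpha2, which encodes an alpha subunit of a glycoprotein hormone, had the smallest adjusted p of the ranked genes. Its levels were -2.10 and -2.35 in the serum mice and -3.89, -4.62 and -4.79 in the oleic acid mice. The difference was -2.21 ± 0.49, or 4.62-fold, with a limma adjusted p of 0.372 (n = 2 and 3). The other 26 arrays ran from -5.22 to -2.70, so both serum mice lay above every one of them and the oleic acid mice lay within their range. Gpha2 did not follow the pituitary hormones, since serum mouse 1 lacked their signal and serum mouse 2 had it.

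Epm2a, which encodes the glycogen phosphatase laforin, gave -3.19 and -2.67 in the serum mice against -4.08, -3.80 and -3.90, a difference of -0.996 ± 0.25. Sohlh2, a germ cell transcription factor, gave -1.28 and -2.51 against -3.27, -3.78 and -3.43, a difference of -1.60 that was -0.98 without serum mouse 1. For Apom, the apolipoprotein that carries sphingosine phosphate, the gap rested on serum mouse 1. Its level was -0.20 there, -3.54 in serum mouse 2, and -4.23, -4.24 and -4.32 in the oleic acid mice. Without serum mouse 1 the Apom difference was -0.72, against -2.39 with it. The other 8 lower genes differed by -0.66 to -0.37. They were C1qtnf2, a secreted C1q and TNF-related protein, at -0.66, Spcs2, a signal peptidase subunit, at -0.52, and the LIM-domain cofactor Ldb1 at -0.50. Also among them were Cib2, a calcium and integrin binding protein, at -0.47, the hydrolase Cmbl at -0.43 (-0.26 without serum mouse 1), and the N-terminal glutamine amidase Wdyhv1 at -0.40. The nucleotide pool sanitising enzyme Nudt1 at -0.40 and the spindle checkpoint gene Bub3 at -0.37 completed the 12. A second Nudt1 probe differed by -0.09 and overlapped, with 0.18 and 0.05 against 0.19, 0.03 and -0.15.

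For most of these genes, as for most genes whose groups did not overlap, the serum mean stood farther from the rest of the series. The serum mean was farther than the oleic acid mean from the median of the other 26 arrays in 12 of 12 ranked higher genes and in 10 of 12 ranked lower genes, Cmbl and Cib2 being the exceptions. Over all genes whose groups did not overlap, the same held for 2460 of 3080 higher genes (79.9%) and 3320 of 4179 lower genes (79.4%). The serum mean rests on 2 arrays and the oleic acid mean on 3, and serum mouse 2 lay on a slide apart from the other 24 h arrays. The part of either in the shares was not tested.

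**Figure D2:**
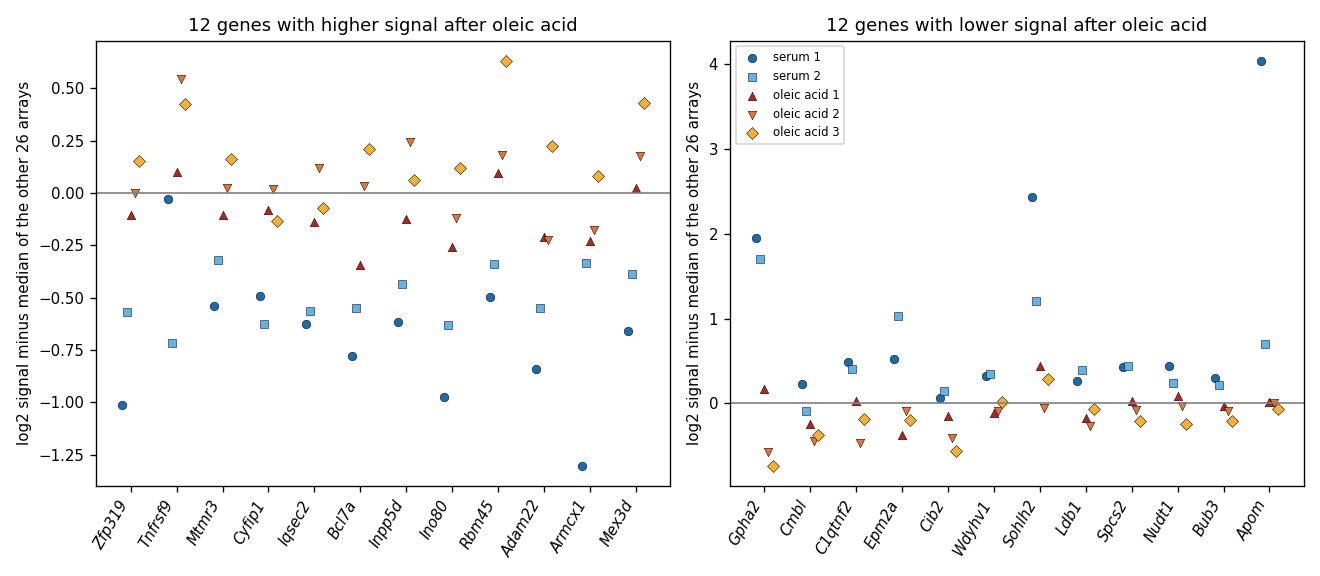
Levels of the 12 highest-ranked genes in each direction in the 5 mice at 24 h, as log2 signal minus the median of the other 26 arrays, which is the line at 0. The serum points lie farther from 0 than the oleic acid points for most genes, and Apom is set apart by serum mouse 1.

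Some genes were above background in every mouse of one treatment and in none of the other. Only the 4 with a gene symbol and the smallest unadjusted limma p in each direction are given. How many of all genes show this pattern was not counted. Gzmf, a granzyme of cytotoxic lymphocytes, was above background in both serum mice (-3.29 and -4.27) and in no oleic acid mouse (-7.26, -7.31 and -7.59). Its signal was at least 3.03-fold higher in serum mice, a bound taken over the lowest signal that is well above background, and the limma adjusted p was 0.364. Casq1, the calsequestrin of fast skeletal muscle, was at least 1.89-fold higher in serum mice, Tmc2, a hair cell channel gene, at least 2.55-fold, and Tmigd3, an immunoglobulin-domain membrane protein, at least 1.57-fold. Above background in the oleic acid mice alone were Gja6, a connexin, at least 3.10-fold higher, the fast myosin heavy chain Myh4 (at least 1.49-fold), the kinesin Kifc5b (at least 1.27-fold) and Accsl (at least 1.19-fold). The Gja6 bound owed most to oleic acid mouse 1, at -1.24 against -4.62 and -4.00 in the other two. These bounds hold for the processed intensities only. With normexp background correction the differences of Kifc5b, Myh4 and Accsl were -0.02, -0.05 and -0.05.

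In the choroid plexus list 12 of 18 genes tested had a positive difference, with a median of 0.03, and 2, both higher, had an unadjusted p under 0.05, against 3.3% of all genes. The split of the list was 7 positive to 11 negative with normexp background correction and 8 to 10 with the hypothalamic score as a covariate. It was 7 to 11 without oleic acid mouse 1, 9 to 9 without serum mouse 1 and 16 to 2 without oleic acid mouse 3. Aqp1, the apical water channel of the choroid epithelium, gave -2.43 and -2.24 in the serum mice and -1.61, -1.09 and -1.76 in the oleic acid mice. The difference was 0.85 ± 0.23 (1.80-fold, limma adjusted p = 0.598), the groups did not overlap, and both serum mice lay below the lowest of the other 26 arrays (-1.99). Slco1a5, an organic anion transporter, gave -5.32 and -5.44 against -4.13, -4.49 and -4.46. Its difference of 1.02 ± 0.30 became 0.03 with normexp background correction, and it was above background in 1 of 2 serum mice. In all, 4 of the 18 genes had groups that did not overlap, all higher, against 12.2% of all genes. The others were the chloride channel gene Clic6, with 0.49 and 0.62 against 1.17, 0.87 and 0.66, and Tmem72, with -5.04 and -5.08 against -4.45, -4.64 and -4.72. Other markers overlapped between the groups. Ttr, the thyroxine carrier of this epithelium, gave 6.01 and 5.91 against 6.38, 6.51 and 5.57, the folate receptor Folr1 differed by 0.28 ± 0.24 and the ageing-related co-receptor Kl by 0.01 ± 0.17.

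Many inflammatory genes were too dim to test. Of 24 listed cytokines and chemokines 13 were tested, 6 with a positive difference, and the median was -0.04. Il1b, the cytokine interleukin-1 beta, gave -6.39 and -5.98 in the serum mice and -5.35, -5.09 and -5.40 in the oleic acid mice. It was well above background on 0 of the 5 arrays, and its difference of 0.90 ± 0.35 became -0.13 with normexp background correction. Tnf and Il6 were above background on 0 of the 5 arrays and were not tested. The NF-kB feedback list was split 6 positive to 8 negative, with a median of -0.02, against -0.04 for all genes. It had 2 members of 14 with an unadjusted p under 0.05, both higher, against 3.3% of all genes. Groups did not overlap for 4 members on the higher side, against 12.2% of all genes, and for 2 on the lower side, against 16.6%. Tnfaip3, the ubiquitin-editing inhibitor of NF-kB, gave -2.02 and -1.98 against -1.77, -1.62 and -1.59, a difference of 0.34 ± 0.15. Bcl3, a nuclear IkB protein, gave -3.03 and -3.02 against -1.96, -2.15 and -2.72. The inhibitor gene Nfkbia overlapped, with 3.10 and 2.52 against 2.73, 2.80 and 2.39.

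Microglial genes were evenly split between the directions. Of 20 microglial genes 10 had a positive and 10 a negative difference, and Gpr34, a lysophospholipid receptor of microglia, differed by 0.48 ± 0.21. Among 20 reactive astrocyte genes the split was also 10 and 10. Timp1, a metalloproteinase inhibitor, differed by 0.53 ± 0.24, while Gfap differed by 0.09 ± 0.14. The gap junction gene Gja1 of astrocytes gave -0.75 and -0.33 against -0.33, -0.17 and 0.16. Of 8 T and NK cell genes tested, 7 had a negative difference, Gzmf the largest, with a list median of -0.33, which was -0.21 without serum mouse 2. Of 7 B cell genes 6 had a positive difference, with a median of 0.19, which ranged from 0.11 without serum mouse 1 to 0.32 without oleic acid mouse 3. Among them H2-Ab1, a chain of the class II antigen-presenting complex, gave -0.74 and -0.32 against 0.19, -0.17 and -0.12. Of 13 neutrophil and monocyte genes 9 had a positive difference, with a median of 0.24, which became -0.13 without oleic acid mouse 2. S100a8, a calprotectin subunit of neutrophils, was -1.85 and -1.36 in the serum mice and -1.24, -0.07 and -1.58 in the oleic acid mice, highest in that mouse. With normexp background correction this list was split 7 positive to 6 negative, with a median of 0.06. Il1r2, its 1 member with an unadjusted limma p under 0.05, was lower at -1.02, against 3.28% of all genes. The groups did not overlap for 2 members, both lower, against 16.6% of all genes.

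Myelin and vessel-wall genes lay mostly on the lower side by small amounts. In the oligodendrocyte list 18 of 19 genes had a negative difference, with a median of -0.13. The median ranged from -0.23 to -0.04 when each array was left out, and without serum mouse 1, which gave the latter, 15 were negative. With normexp background correction 12 were negative and the median was -0.06. Olig1, the oligodendrocyte lineage factor, gave 3.90 and 4.03 against 3.71, 3.67 and 3.77. It was the single member with an unadjusted p under 0.05, against 3.28% of all genes on the lower side. The myelin gene Mbp differed by -0.24 ± 0.19. Of 10 pericyte and smooth muscle genes 9 had a negative difference, with a median of -0.15, Myh11, the smooth muscle myosin, among them at -0.46 ± 0.22. In the meningeal fibroblast list 9 of 13 did, with a median of -0.19. Ptgds, the prostaglandin D synthase of leptomeninges and choroid plexus, gave 8.96 and 8.77 against 8.64, 8.30 and 8.11, and the matrix protein Fmod differed by -0.51 ± 0.22. The pituitary and hypothalamic levels given above also differed between these 5 mice. With the pituitary score as a covariate the medians of the oligodendrocyte, pericyte and meningeal lists were -0.12, -0.18 and -0.23, and with the hypothalamic score -0.14, -0.14 and -0.15. Without oleic acid mouse 2 the pericyte median was -0.09, and 7 of 13 meningeal genes were negative, with a median of -0.10.

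**Figure D3:**
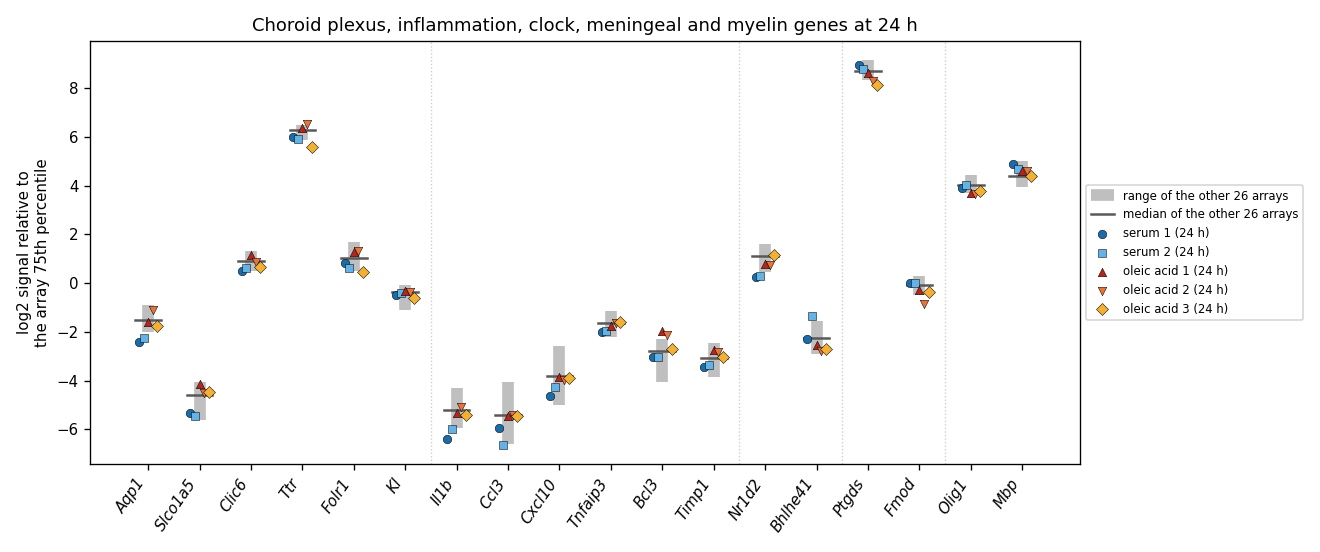
Levels of choroid plexus, inflammatory, clock, meningeal and myelin genes (log2 signal relative to the array's 75th percentile) in each mouse at 24 h, with the range and median of the other 26 arrays. For Aqp1 and Il1b both serum mice lie below the range of the other arrays, while the oleic acid mice lie within it.

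The lists for fatty acids and oxygen, chosen because oleic acid is a fatty acid and the model impairs gas exchange, had medians near that of all genes. The PPAR and fatty acid oxidation list had 17 of 32 genes with a positive difference and a median of 0.01. Pdk4, the kinase that inhibits pyruvate dehydrogenase and is a classical PPAR target, gave -1.93 and -1.58 against -1.36, -1.20 and -1.52, a difference of 0.40 ± 0.18. Acsl4, an acyl-CoA synthetase for polyunsaturated fatty acids, gave 1.93 and 1.74 against 2.17, 2.33 and 2.56. Scd1 and Scd2, the desaturases that make oleic acid, differed by -0.04 ± 0.25 and -0.06 ± 0.09. Among 28 hypoxia-inducible factor targets 15 had a positive difference, with a median of 0.02. Ankrd37, at -0.47 ± 0.15, was the one with an unadjusted p under 0.05, against 3.28% of all genes on the lower side. Vegfa, the vascular growth factor, differed by 0.05 ± 0.15. In the antioxidant list the mitochondrial superoxide dismutase Sod2 differed by -0.27 ± 0.12 and the haem oxygenase Hmox1 by -0.11 ± 0.28.

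Clock genes had a positive difference in 15 of 21 members, with a median of 0.14. Without serum mouse 2 the count was 12 and the median 0.05, and without serum mouse 1 they were 18 and 0.23. Nr1d2, a nuclear receptor that represses clock genes, gave 0.24 and 0.29 against 0.78, 0.75 and 1.15, a difference of 0.63 ± 0.21. Bhlhe41, a repressor of the clock, gave -2.30 and -1.37 against -2.56, -2.79 and -2.69, and its difference of -0.85 ± 0.27 was -0.38 without serum mouse 2. The core genes Per1, Per2, Dbp and Arntl overlapped between groups, with differences from -0.11 to 0.14. Immediate early genes, which mark recent neuronal activity, had a positive difference in 23 of 34 members and a median of 0.13. That median was -0.09 without oleic acid mouse 2, 0.03 without serum mouse 2 and 0.20 without oleic acid mouse 3. Arc, for example, gave 3.51 and 3.56 against 3.29, 4.71 and 2.97.

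Ribosomal protein genes had a negative difference in 19 of 25 members, with a median of -0.15 and 4 members, all lower, with an unadjusted p under 0.05, against 3.28% of all genes. Rpl10 gave 7.41 and 7.25 against 7.11, 7.17 and 6.82. The list median was -0.05 without serum mouse 1. It was -0.00083 without oleic acid mouse 3, which had the lowest mean ribosomal level of the 5 (5.69 against 5.95 to 6.14). Interferon-stimulated genes were split 20 positive to 13 negative with a median of 0.07. Of these, 0 had an unadjusted p under 0.05, against 6.58% of all genes. In the unfolded protein response list Trib3, a pseudokinase induced by stress, had a difference of 1.198 ± 0.46. It came from oleic acid mouse 2, at 0.42 against -1.53 and -2.32 in the other oleic acid mice and -2.57 and -2.10 in the serum mice, and was 0.41 without that mouse.

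**Figure D4:**
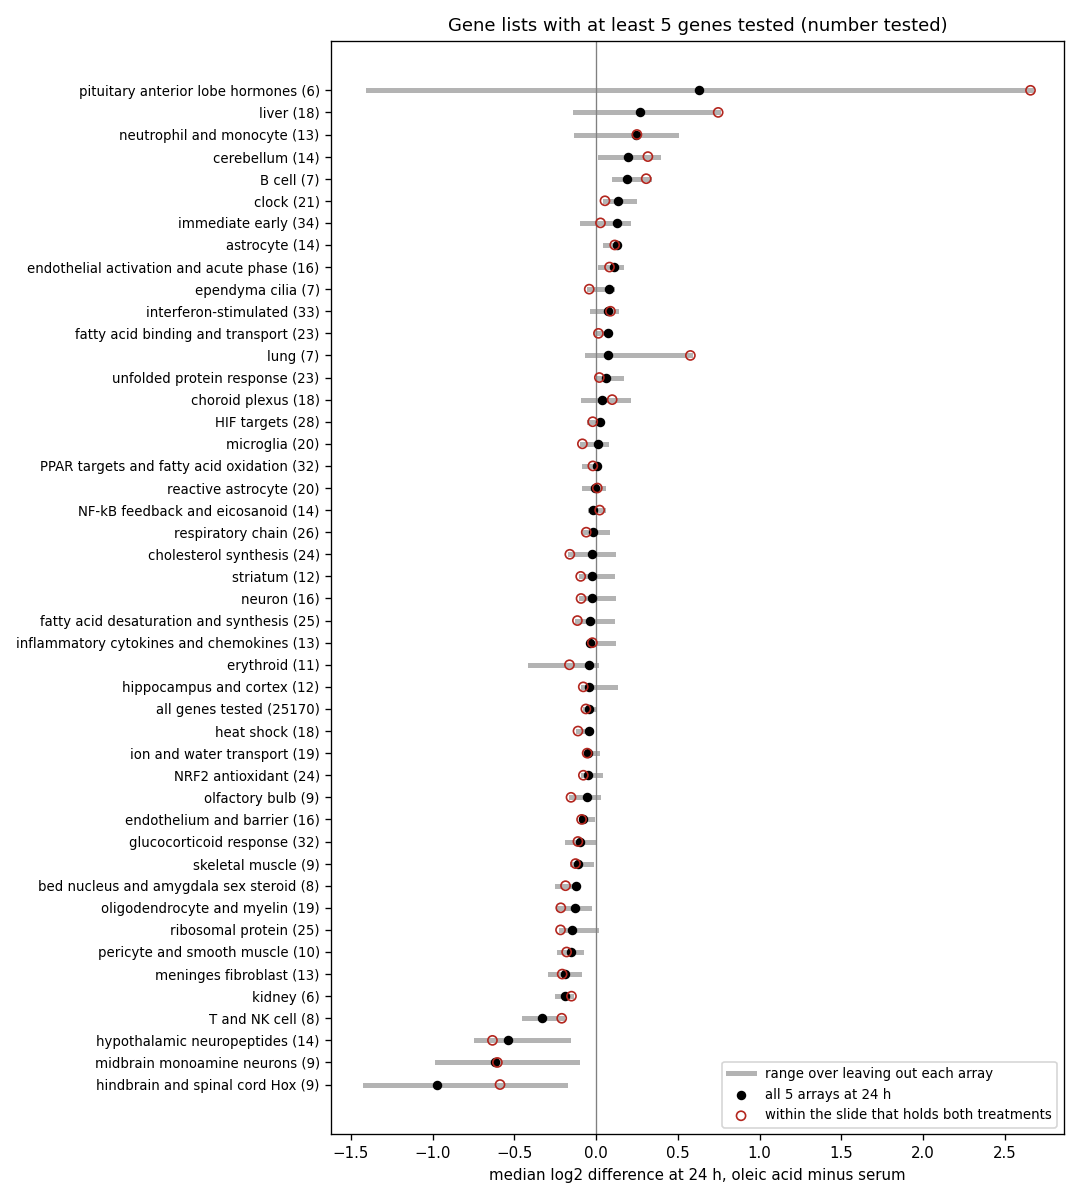
Median log2 difference of gene lists with at least 5 genes tested (black), the range when each 24 h array is left out (grey bar) and the value within the slide that holds both treatments (red ring). Most medians lie close to 0. The pituitary list spans the widest range, from -1.39 to 2.66, and the Hox, monoamine and hypothalamic lists lie lowest.

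The 24 h difference was also set against that at 18 h, the nearest time, with 2 mice in each treatment. The test of the gap between the times called 0 of 25170 genes (0%) by limma adjusted p. Unadjusted p was under 0.05 for 2010 (7.99%), 3.99% in the higher and 3.99% in the lower direction. The 18 h treatments lay on different slides, so at 18 h the slide cannot be told apart from the treatment. Among the 6 ranked genes whose difference was higher at 24 h, Cyfip1 went from -0.33 at 18 h to 0.49 at 24 h, a gap of 0.82 ± 0.19 with a limma adjusted p of 0.620. Lypd1, a modulator of nicotinic receptors, went from -0.43 to 0.59. Mllt1, a transcription elongation cofactor, went from -0.42 to 0.54. For Smyd4, Lrrtm1 and P4ha2 the 24 h difference was 0.29, 0.17 and 0.09, and the gap owed more to the 18 h values of -0.77, -0.70 and -0.57. On the other side Scaper went from 0.37 to -0.32, Cib2 from 0.27 to -0.47, Cnfn from 1.09 to -0.73 and Mettl27 from 0.55 to -0.50. Ghdc and Eya4 went from 1.21 and 0.93 to -0.34 and -0.27.

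Against the mean difference of the other 5 times, 0 genes (0%) had a limma adjusted p under 0.05. Unadjusted p was under 0.05 for 1466 genes (5.82%), 2.93% higher and 2.9% lower. Aqp1 had differences of -0.40, -0.06, 0.13, -0.22 and 0.03 from 1 to 18 h and 0.85 at 24 h. The departure of 24 h from the other times was 0.95 ± 0.25, with a limma adjusted p of 0.780. Rbm45 departed by 0.90 ± 0.21, Lypd1 by 0.68 ± 0.18, Iqsec2 by 0.58 ± 0.16, Cyfip1 by 0.50 ± 0.14 and Eif4enif1, a transporter of the cap-binding protein, by 0.38 ± 0.10. On the lower side were Epm2a at -1.11 ± 0.27, Sohlh2 at -1.69 ± 0.45, C1qtnf2 at -0.64 ± 0.18, Ldb1 at -0.52 ± 0.14, Wdyhv1 at -0.46 ± 0.11 and Xrcc2, a DNA repair gene, at -0.37 ± 0.10. At 24 h a second, dimmer Xrcc2 probe differed by 0.53, against -0.31 at the probe used. These contrasts use the same 24 h mice as the 24 h comparison. Of the genes ranked by the 3 comparisons, 27 were named by 1, 9 by 2 and 1, Cyfip1, by all 3.

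**Figure D5:**
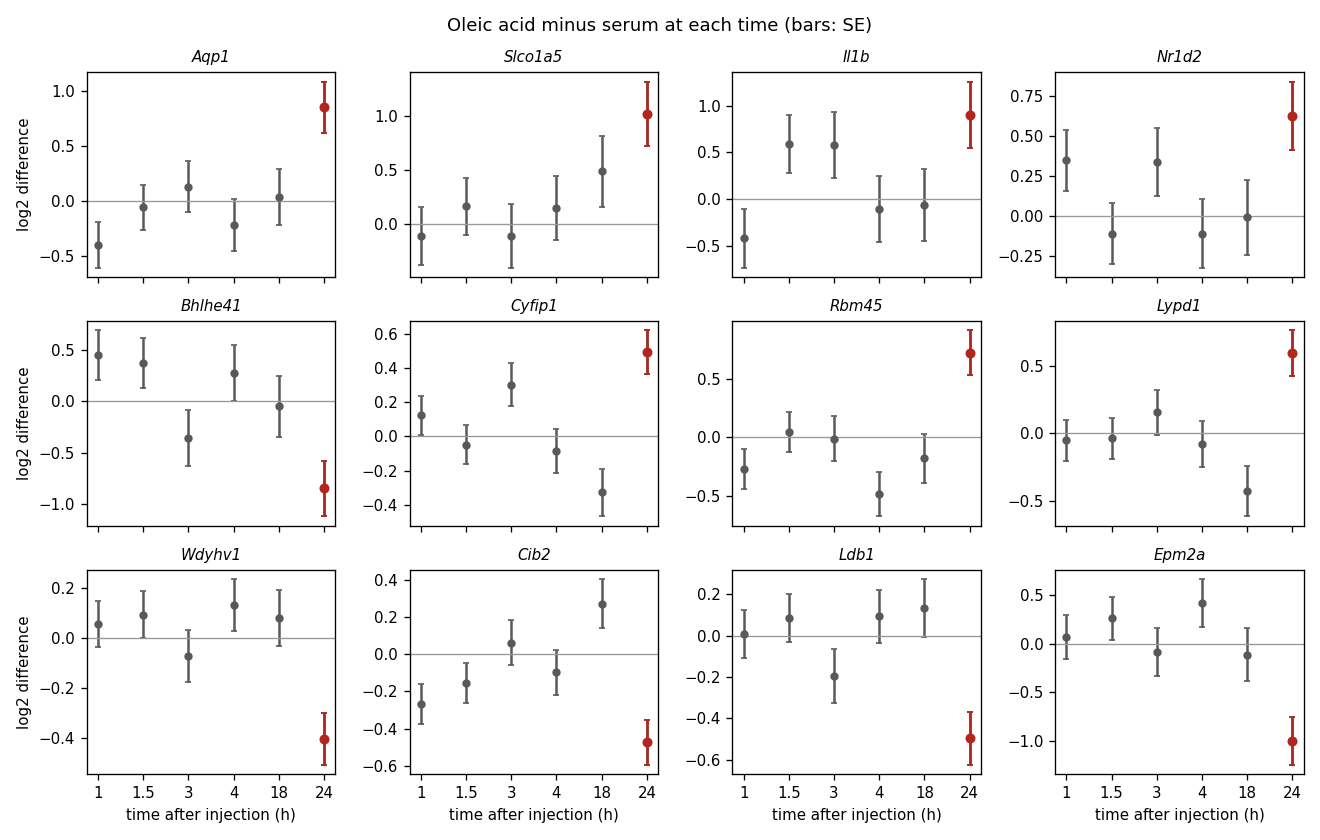
Oleic acid minus serum difference (log2) of 12 genes at each time after injection, with SE bars from the fit to all 31 arrays and the 24 h value in red. The time axis is not to scale. Aqp1 is within 0.40 of 0 at the 5 earlier times and at 0.85 at 24 h, and Epm2a is between -0.11 and 0.42 earlier and at -0.996 at 24 h.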

How the data were processed

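Cy3 intensity was extracted by the authors using Feature Extraction, version 10.5.1.1, an Agilent program named in the headers. The deposited processed intensity is background-subtracted and spatially detrended, with no scaling between arrays. An alternative used the authors' deposited log2 value table, quantile-normalized as far as its values tell. Other columns used are the authors' flags of 0 or 1 per spot. Processed intensities were log2-transformed and the 75th percentile of each array was subtracted. Non-uniform and population outlier spots were set to missing. A probe was kept if some group of the 12 had it well above background throughout and all arrays measured it (35499 of 55681), and the brightest probe stood for each of 25170 genes. Probe coordinates are on mm9. Names came from the array annotation, updated by accession for 26685 probes.

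A model with 12 group means was fitted to all 31 arrays with limma 3.58.1 in R 4.3.3 (19 residual degrees of freedom), with Benjamini-Hochberg adjustment over all genes and a threshold of 0.05. The code was tested on simulated data. Ranked genes are the 12 smallest unadjusted p per direction at 24 h (6 for the other contrasts) among named genes above background on all arrays compared. At 24 h they also had to have groups that do not overlap. Of each of the 51 gene lists, up to 6 members by unadjusted p and up to 4 by signal could be named, and the tissue genes were named whatever their p. Nfkbia, Tnf, Il6, Arc and other members outside this rule were picked with their values in view. The members and lists were chosen with earlier results of these data known. 1 of the lists and some genes are not reported here.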

Additional observations from a re-analysis of the deposited data

How the results depend on the processing

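The 24 h comparison called 0 genes by limma adjusted p with the settings of the report. It called 2 with scaling to the median, 1 with the deposited value table, 2 with the mean of all probes, 1 with slide as a random block, 80 with slide as a fixed block (54 of these were among the 58 called from the 24 h arrays of slide 5 only) and 75 with slide and pituitary score together, an alternative chosen after seeing the data. Leaving out each 24 h mouse in turn gave 0 to 58 calls, the highest without serum mouse 2. The gap to 18 h went from 0 to between 0 and 27 calls when each mouse was left out. The departure from the other 5 times went from 0 calls to 3 with median scaling, 43 with slide as a fixed block, 1 with slide as a random block and 52 with slide and pituitary score, and 0 to 47 when each mouse was left out. The other alternatives, normexp, quantile normalization and the filters among them, called 0. With the replicate block, calls stayed at 0 in all 3 comparisons. Same-numbered mice at 24 h had deviations correlated at -0.01 and -0.18, so the numbers were not taken to pair mice. Of 9478 gene values under alternatives, 8946 kept direction and side of the threshold. Another 494 changed sign for genes whose unadjusted limma p was 0.05 or more with the settings of the report. A further 6 changed sign for genes whose unadjusted limma p was under 0.05. With the mean of all probes Mtmr3 was -0.0563 and Xrcc2 0.11, and with normexp Kifc5b was -0.0234, Myh4 -0.0535, Accsl -0.0495 and Il1b -0.133. The remaining values kept direction and moved to a limma adjusted p under 0.05. Fits with serum mouse 1 as the sole 24 h control were among the settings that gave them. The cause of these changes was not tested. With 2 serum mice on different slides, signal over background and array number limit every difference given here.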

Other observations

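Genes that mark other organs varied between the 24 h brains. Alb, the plasma protein of liver, was -3.00 and -1.02 in the serum mice and -1.41, -0.41 and -1.65 in the oleic acid mice, inside the range of the other 26 arrays (-6.09 to 2.78). Scgb1a1, a secretory protein of airway cells, was -3.67 and -1.16 in the serum mice and -1.72, -0.03 and -0.10 in the oleic acid mice, and the surfactant gene Sftpc overlapped between the groups. Of 6 kidney genes tested 5 had a negative difference, and for 3 the groups did not overlap, against 16.6% of all genes. Of 18 liver genes the groups did not overlap for 2 on the higher side, the fibrinogen chain Fgg among them, against 12.2% of all genes. On the lower side they did not overlap for 1, Apoa2, against 16.6% of all genes. The 9 Hox genes tested, which mark hindbrain and spinal cord, all had a negative difference (median -0.97). Of these, 0 had an unadjusted limma p under 0.05, against 3.28% of all genes on the lower side. Their groups did not overlap for 0, against 16.6% of all genes. The median was -0.36 without oleic acid mouse 2, -0.19 without oleic acid mouse 3 and -0.38 with normexp background correction. The mean level of the list was -6.05 and -5.86 in the serum mice, and -5.71, -7.03 and -7.42 in the oleic acid mice. All 5 lay inside the range of the other 26 arrays (-7.94 to -3.51).

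Some genes were high in serum mouse 1 alone, and are given as values chosen after they were seen. Satb1, a chromatin organiser of neurons and T cells, was 7.92 there, 2.77 in serum mouse 2, 2.76 to 3.03 in the oleic acid mice and at most 3.10 on the other 26 arrays. Cftr, the epithelial chloride channel, was 1.41 there and -7.55 to -5.34 on the other 24 h arrays. Cyp19a1, the oestrogen-synthesising aromatase of preoptic area and amygdala, was -2.02 there, -4.34 in serum mouse 2, and -5.64, -5.63 and -4.87 in the oleic acid mice. Its difference was -2.20 ± 0.47 with a limma adjusted p of 0.364. For Tnfaip8 1 probe was 0.98 there and -1.80 to -1.70 on the other 24 h arrays, while a second was -3.09 there, the lowest of the 5. For Defb36 1 probe was -0.51 there and -4.95 to -3.77 on the others, while a second was -6.51 there and -7.54 to -6.20 on the others. For Gnrh1 both probes were highest in serum mouse 1 at 24 h, at -0.39 against -5.25 to -4.49 and at -5.21 against -7.46 to -6.11. Spots over 2 log2 units above their series median numbered 341 on that array, and 79.5% of them had another such spot within 2 rows and columns. On the other 24 h arrays such spots numbered 758 for serum mouse 2 and 505, 466 and 182 for oleic acid mice 1, 2 and 3. The shares there were 50.9% for serum mouse 2 and 71.7%, 78.1% and 56.0% for oleic acid mice 1, 2 and 3. The part of spot position in the single-array values was not tested.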
